A study of Mus musculus with 7 samples.

Results

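The constitutive proteasome is the set of subunits that make up the protein-degrading machine found in every cell. Its genes were taken from the count table by symbol, as rows beginning with Psma, Psmb, Psmc, or Psmd followed by a number, without the immunoproteasome genes Psmb8, Psmb9, and Psmb10, and with 5 counts or more as the mean over the libraries. The symbols alone gave 36 genes, and 2 of them, the testis subunit Psma8 with no more than 4 counts in any library and the thymus subunit Psmb11 with 0 counts in all, lay under the minimum. The remaining 34 genes, 14 of the core and 20 of the cap, were studied among 12623 tested genes of 55367 in the table. Their mean counts were between 213 and 2853 per library.

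The samples were CD8+ T cells of mice of the Foxp3 YFP/cre strain, in which a yellow fluorescent protein and Cre are made from the Foxp3 locus of regulatory T cells. CD8+ T cells sorted from the spleen received small extracellular vesicles (sEV) for 48 hours at a labelled dose of 100 μg/mL, whereas the methods speak of the amount found in each kind of spleen. Vesicles came from the leukemia microenvironment of Eμ-TCL1 mice (LME-sEVs, 3 libraries) or from healthy control spleens (HCME-sEVs, 4 libraries). Eμ-TCL1 mice carry a human TCL1 transgene, and their B cells grow into a chronic lymphocytic leukemia. No library without vesicles was analysed here. The study's text gives the sizes of the groups the other way round. The sample titles were followed, and every direction given here rests on them. The labels describe every library as healthy, those given LME-sEVs included. The culture described for CD8+ T cells has wells coated with anti-CD3, IL2, and an antibody to CD28, so both groups are models of stimulated cells. The labels do not say whether libraries came from separate animals, and the p-values measure only the spread between these libraries, which may be technical. Levels are given as counts scaled to a common library size (CPM), with a trimmed-mean correction between libraries (TMM), and a gene was called where the false discovery rate (FDR) of edgeR's quasi-likelihood test was under 0.05 over all 12623 genes.

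The proteasome cuts proteins that carry ubiquitin. Its core is a barrel of stacked rings, in which the outer alpha rings form the gate and the inner beta rings hold the cutting sites. A cap sits on the barrel: its base unfolds the substrate with a ring of ATPases, and its lid removes the ubiquitin. In T cells and in cells exposed to interferon, catalytic beta subunits of the immunoproteasome can take the place of the constitutive ones. The immunoproteasome favors peptides that fit MHC class I. Cells short of proteasome activity raise the subunit genes together through the transcription factor encoded by Nfe2l1, which binds antioxidant response elements.

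To show what lies before these genes, 100 bases are given that end just before the earlier of the RefSeq and GENCODE vM21 starts, for 2 catalytic subunits whose promoters carry the core of that element and for 3 cap genes with large falls (RefSeq, build GRCm38.p6, 5′ to 3′ on the gene's strand). Capitals mark TGACNNNGC or its reverse complement. Psmd13, the gene with the largest fall, is not among those shown. The stretches are chr14:54618023-54618122 (minus strand), chr11:70525257-70525356 (plus), chr11:106256054-106256153 (plus), chr12:100110054-100110153 (plus), and chr14:14120985-14121084 (minus), in the order shown.
Psmb5: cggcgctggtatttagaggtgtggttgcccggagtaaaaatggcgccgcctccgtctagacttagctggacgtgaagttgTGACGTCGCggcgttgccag
Psmb6: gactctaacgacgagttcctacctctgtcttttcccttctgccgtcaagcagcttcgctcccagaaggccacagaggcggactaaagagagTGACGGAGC
Psmc5: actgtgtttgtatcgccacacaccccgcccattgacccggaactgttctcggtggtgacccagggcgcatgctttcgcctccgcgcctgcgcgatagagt
Psmc1: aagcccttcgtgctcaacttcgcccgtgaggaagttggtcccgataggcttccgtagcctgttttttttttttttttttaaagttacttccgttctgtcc
Psmd6: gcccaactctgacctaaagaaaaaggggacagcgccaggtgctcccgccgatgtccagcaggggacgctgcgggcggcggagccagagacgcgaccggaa

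A RefSeq promoter of 250 bases before and 50 after the start was at hand for 28 of the 34 genes. TGACNNNGC, searched on both strands, was present in 5 of these 28 (17.9%): Psmb5, Psmb6, Psmc6, Psmd9, and Psmd12. Counted by gene in the same way, with a motif in any promoter of the gene, it was present in 16.7% of tested genes with a promoter. Of all 32851 promoters, counted singly and not by gene, 12.4% held it. By gene, CCAAT occurred in 39.3% of the subunits and in 43.7% of the tested genes that had a promoter, and CACGTG in 7.14% and 11.8%. Of the 8 genes called lower, 7 had a promoter and 1 of these, Psmd12, held TGACNNNGC (14.3%). Among genes not called the share was 19.0%, and no test was run on these small numbers.

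Library totals ranged from 3689831 to 5030522 counts and TMM factors from 0.965 to 1.03. The 7 CD8 T-cell markers summed to between 1799 and 2017 CPM with HCME-sEVs and between 2080 and 2396 CPM with LME-sEVs, and 2 of them, Cd3e and Cd3g, were called higher. Markers of other cells were low: at most 1.60 CPM for CD4 T cells, 11.7 CPM for B cells, and 7.53 CPM for myeloid cells in any library. Basophil and mast cell markers summed to between 5.30 and 30.4 CPM with HCME-sEVs and to between 19.8 and 37.8 CPM with LME-sEVs, with Prg2 and Mcpt8 of 4 tested called higher. Natural killer markers reached 30.4 CPM, and erythroid markers 49.2 CPM, with Hba-a1 of 4 tested called higher. No marker was at 0 in every library. The part of these cells in the results was not tested, and in bulk RNA fewer cells of a type and less RNA per cell cannot be told apart.

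Several proteasome subunit genes were lower in CD8+ T cells that had received LME-sEVs. Of the 34 genes, 8 fell, none rose, and 33 had a negative log2 fold change, beside 48.5% of all tested genes. Among all tested genes 5.21% were called lower and 3.75% higher. Of the 3902 genes with a mean count no lower than that of the least abundant subunit, 10.2% were called lower and 4.84% higher. This set has no upper bound, and its mean counts reach 135801. The core gave 1 call in 14 genes (Psma4) and the cap 7 in 20 (Psmc1, Psmc5, Psmd4, Psmd6, Psmd7, Psmd12, and Psmd13). The difference between core and cap was not tested. The median log2 fold change was -0.16 over the core and -0.25 over the cap, beside 0.0095 over all tested genes and -0.046 over the 3902. No subunit passed the limit for differentially expressed genes, an FDR under 0.05 with a log2 fold change beyond 1, which 1.28% of tested genes passed.

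The falls were small. The largest was 30.0%, and without adjustment 19 of the 34 genes, 4 of the core and 15 of the cap, were lower with an edgeR p under 0.05, as were 12.3% of all tested genes and 22.7% of the 3902 abundant genes. In 14 genes, 3 of the core and 11 of the cap, every LME-sEV library lay below every HCME-sEV library, and in none did every LME-sEV library lie above. Of all tested genes 10.8% were separated downward and 9.49% upward, and of the 3902 abundant genes 19.3% downward. The number called depended on single libraries. It was 2 without LME-sEV library 2 or without LME-sEV library 3, 5 without HCME-sEV library 2, 13 without HCME-sEV library 3, and 7 or 8 without any other. Psmc1 and Psmd13 were called in each of these fits, and were the only ones called without LME-sEV library 2 or 3. The counts of both may be uncertain, through near-identical 3′ ends for Psmc1 and an exon overlap on the other strand for Psmd13.

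**Figure D1:**
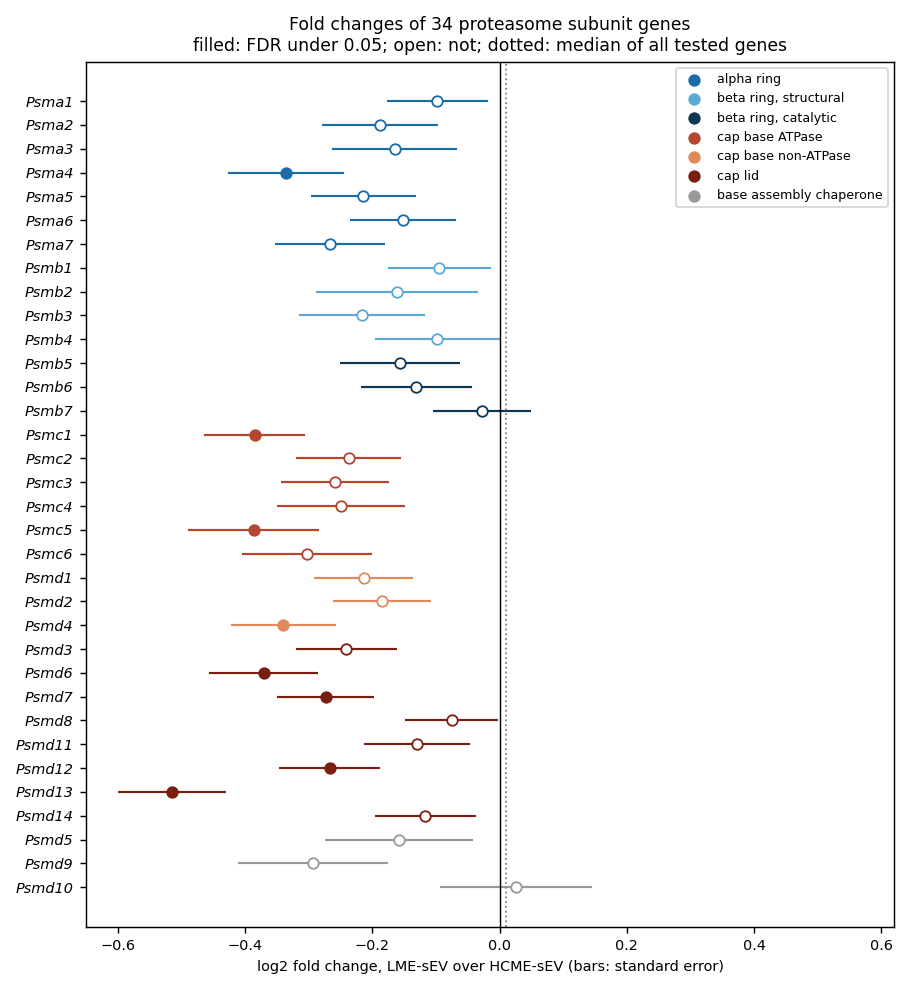
Log2 fold change of each of the 34 subunit genes, LME-sEVs over HCME-sEVs (horizontal axis, bars of 1 standard error), by role in the particle (colors). Filled points have an FDR under 0.05; all but Psmd10 lie left of 0, and the dotted line is the median of all tested genes.

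Summed over the core, the genes took 0.4996%, 0.446%, 0.435%, and 0.430% of all counts in HCME-sEV libraries 1 to 4 and 0.433%, 0.413%, and 0.396% in LME-sEV libraries 1 to 3. The cap took 0.468%, 0.456%, 0.426%, and 0.445% with HCME-sEVs and 0.400%, 0.381%, and 0.378% with LME-sEVs. The cap shares were separated between the groups, whereas for the core the lowest HCME-sEV library lay just under the highest LME-sEV library. With TMM scaling these 2 libraries nearly coincided, at 4306 and 4303 CPM, and the core sums no longer overlapped. Counts of the cap relative to the core were 0.937, 1.02, 0.978, and 1.03 with HCME-sEVs and 0.922, 0.924, and 0.953 with LME-sEVs, so the ratio overlapped through HCME-sEV library 1.

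HCME-sEV library 1 held the highest level of 21 genes, 11 of them in the core, and LME-sEV library 3 the lowest of 18. Without HCME-sEV library 1 the medians were -0.10 for the core and -0.21 for the cap, and the same 8 genes were called. The spread between libraries of one group, as a median coefficient of variation, was 8.32% with HCME-sEVs and 7.29% with LME-sEVs. Counting alone would give a median of 3.20%, and between 1.87% and 6.86% for single genes.

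**Figure D2:**
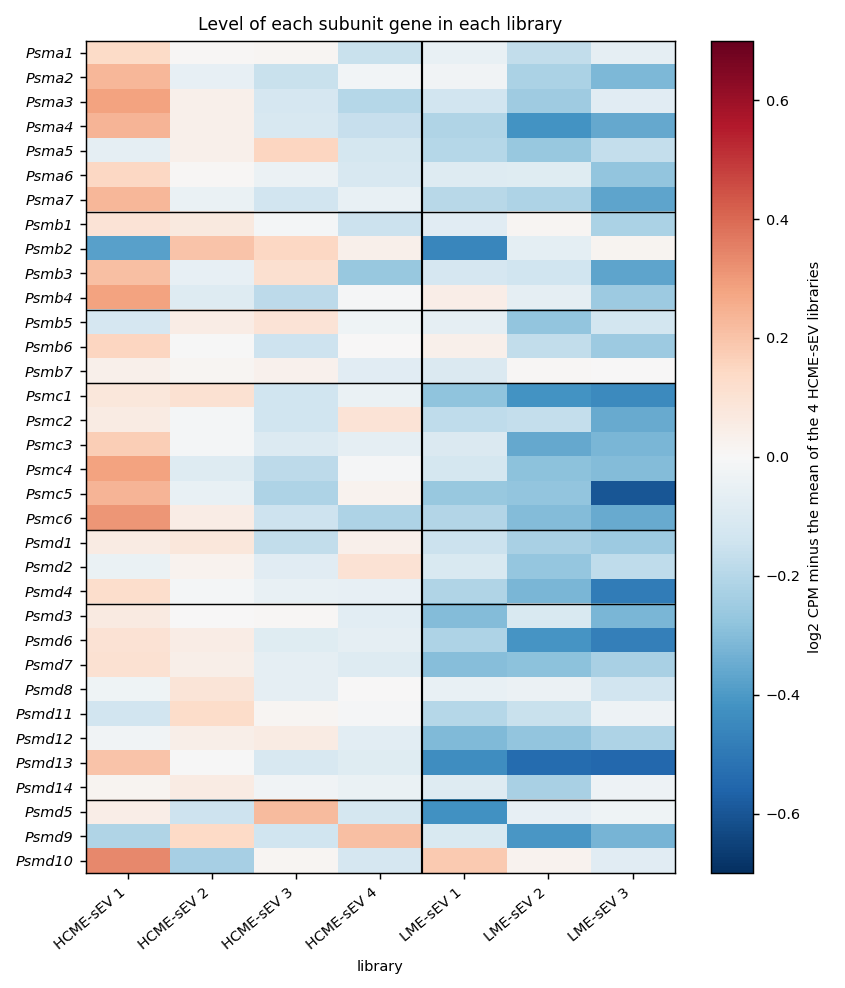
Log2 CPM of each subunit gene (rows, grouped by role) in each library (columns), relative to the mean of the 4 HCME-sEV libraries. Blue prevails in the 3 LME-sEV columns and is deepest in the cap, at Psmd13 and Psmc5; HCME-sEV library 1 is red for most core genes.

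The alpha ring, whose subunits control entry into the barrel, gave 1 call in 7 genes. Psma4 was at 488, 424, 384, and 370.4 CPM in HCME-sEV libraries 1 to 4 and at 358, 309.9, and 324 CPM in LME-sEV libraries 1 to 3. All LME-sEV values lay under all HCME-sEV values, and HCME-sEV library 1 stood highest. The log2 fold change was -0.34 (SE 0.091, edgeR FDR 0.0249), and the call was lost without HCME-sEV library 2 (FDR 0.0714), LME-sEV library 2 (0.150), or LME-sEV library 3 (0.114). A near-identical 3′ end of Gm6542 makes its counts uncertain, and exons of AY074887 overlap its exons on the other strand. Psma7 was measured at 779, 642, 605, and 641 CPM with HCME-sEVs and at 579.5, 571, and 513 CPM with LME-sEVs. Its groups were also separated, with HCME-sEV library 1 far above the others, but the log2 fold change of -0.27 missed the limit (SE 0.086, edgeR FDR 0.0587). Psma5 was separated too, at a log2 fold change of -0.21 (FDR 0.118). The other 4 overlapped between groups: Psma2 had a log2 fold change of -0.19, Psma3 of -0.17, Psma6 of -0.15, and Psma1 of -0.098, and none was called. Reads of the 3′ end make levels comparable between genes without regard to length, and Psma2, at 719 ± 84.7 CPM (SD, n = 4) with HCME-sEVs, was the most abundant of all 34 genes.

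The beta ring held no call, and its structural and catalytic subunits each had a median log2 fold change of -0.13, beside -0.19 in the alpha ring. Of its structural subunits, which hold no cutting site, Psmb3 had a log2 fold change of -0.22, Psmb2 of -0.16, Psmb4 of -0.098, and Psmb1 of -0.095, all with overlapping groups. These values moved with single libraries. Psmb4 was at 0.0034 without HCME-sEV library 1 and at -0.018 without LME-sEV library 3, Psmb2 at -0.032 without LME-sEV library 1, and Psmb1 at -0.032 without LME-sEV library 3.

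None of the catalytic subunits was called. Psmb5, the chymotrypsin-like subunit and the target of bortezomib, was at 65.3, 73.5, 75.5, and 69.1 CPM with HCME-sEVs and at 67.8, 58.4, and 64.6 CPM with LME-sEVs. LME-sEV libraries 1 and 3 lay about as low as HCME-sEV library 1, and the groups overlapped at a log2 fold change of -0.16 (SE 0.095, edgeR FDR 0.349). Psmb6, the caspase-like subunit, was at 268, 240.5, 218, and 241 CPM and at 248, 214, and 202 CPM in the same order. LME-sEV library 1 was higher than 3 of the HCME-sEV libraries, and the log2 fold change was -0.13 (SE 0.088, edgeR FDR 0.404). For Psmb7, the trypsin-like subunit, the values were 174, 171, 173, and 159.9 CPM and 158, 170.3, and 169.8 CPM. These ranges nearly coincided, with a log2 fold change of -0.028 (SE 0.077, edgeR FDR 0.874), which turned to 0.017 when only library size was used for scaling and to 0.013 without LME-sEV library 1.

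Their immunoproteasome counterparts were compared next, as these take the same positions in the ring. Psmb8 was at 418, 457, 456, and 407 CPM with HCME-sEVs and at 389.9, 405, and 429 CPM with LME-sEVs. The groups overlapped, and the log2 fold change was -0.091 (edgeR FDR 0.517). Psmb9 showed 256, 329, 408, and 309.6 CPM and 322, 426, and 305 CPM. Here LME-sEV library 2 and HCME-sEV library 3 were high and the groups were mixed, with a log2 fold change of 0.11 (edgeR FDR 0.662) that turned to -0.055 without LME-sEV library 2. Psmb10 gave 119, 109, 109.9, and 122 CPM and 97.9, 97.5, and 104 CPM. All its LME-sEV libraries lay below the HCME-sEV libraries, with a log2 fold change of -0.21 that was not called (edgeR FDR 0.133).

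In these cells Psmb8 counts were 5.88 to 6.40 times those of Psmb5 with HCME-sEVs and 5.74 to 6.91 times with LME-sEVs. The ratio of Psmb9 to Psmb6 ranged from 0.955 to 1.87 and from 1.30 to 1.98, and that of Psmb10 to Psmb7 from 0.635 to 0.766 and from 0.573 to 0.622. Only the last was separated between groups. As log2 ratios the differences were 0.065, 0.24, and -0.18. In an exact permutation test (two-sided, 35 ways to divide the libraries), whose smallest possible p is 0.0286, the p-values were 0.429, 0.343, and 0.0857, and after Benjamini-Hochberg adjustment over the 3 ratios 0.429, 0.429, and 0.257. The Psmb5 counts behind the first ratio are uncertain, since Gm3375 and Psmb5-ps have near-identical 3′ ends and Mir686 overlaps its exons. Exons on the other strand also overlap those of Psmb7 (Nek6), Psmb8 (Gm20496), and Psmb9 (Tap1). A shift in either direction was not detected at this number of libraries, which does not show that the balance was equal. The 3 immunoproteasome genes together amounted to between 7.89% and 11.3% of the counts of the 34 subunits with HCME-sEVs and to between 9.79% and 11.8% with LME-sEVs.

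**Figure D3:**
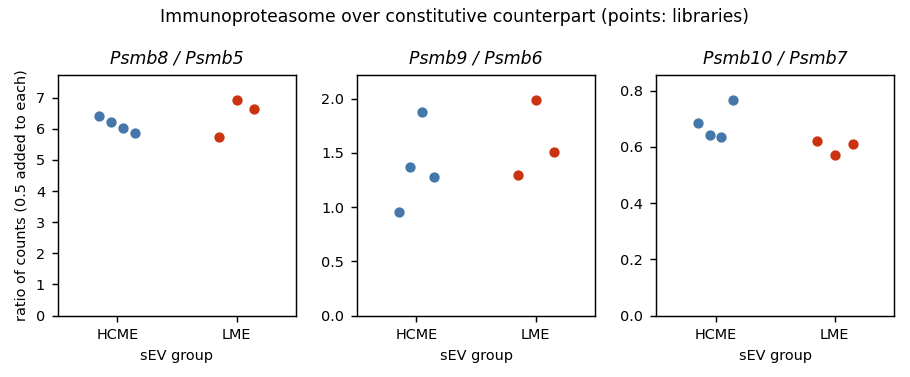
Ratio of counts (0.5 added to each) of each immunoproteasome gene to its constitutive counterpart in the 4 HCME-sEV and 3 LME-sEV libraries (points). The groups overlap for Psmb8 over Psmb5 and Psmb9 over Psmb6, and the LME-sEV points lie lower for Psmb10 over Psmb7, with an adjusted exact permutation p of 0.257.

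In the base of the cap, 2 of 6 ATPase genes fell. Psmc1 was at 493, 502, 424, and 451 CPM in HCME-sEV libraries 1 to 4 and at 383, 349, and 343 CPM in LME-sEV libraries 1 to 3. A clear gap lay between the groups, and the log2 fold change was -0.39 (SE 0.080, edgeR FDR 0.00474). Its 3′ end is nearly identical to those of AC110212.1 and Gm9575, which makes the counts uncertain. Psmc5 was at 234, 191, 170.4, and 201 CPM and at 164, 164, and 130.3 CPM, lowest in LME-sEV library 3 and highest in HCME-sEV library 1. The groups were separated by a narrow margin, with a log2 fold change of -0.39 (SE 0.10, edgeR FDR 0.0226), and the call was lost without HCME-sEV library 4 (FDR 0.0534), LME-sEV library 2 (0.0567), or LME-sEV library 3 (0.175).

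The other ATPase genes moved less or were more spread. Psmc3 was at 396, 348, 329, and 337 CPM with HCME-sEVs and at 328, 274, and 282 CPM with LME-sEVs. LME-sEV library 1 fell just under the lowest HCME-sEV library, and the log2 fold change was -0.26 (SE 0.085, edgeR FDR 0.0634). Psmc6 had 329.6, 277, 241, and 229 CPM and 231, 216, and 208 CPM. LME-sEV library 1 exceeded HCME-sEV library 4, and the log2 fold change of -0.30 was not called (SE 0.10, edgeR FDR 0.0685). Psmc2, with separated groups, had a log2 fold change of -0.24, and Psmc4, with overlapping groups, of -0.25, and neither was called.

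Of the subunits of the base that are not ATPases, Psmd4, a receptor for ubiquitin, fell. It was at 304, 277, 269, and 268 CPM with HCME-sEVs and at 241, 224, and 199 CPM with LME-sEVs. Every LME-sEV library was below every HCME-sEV library, and LME-sEV library 3 was lowest. The log2 fold change was -0.34 (SE 0.083, edgeR FDR 0.0131), and without LME-sEV library 2 or 3 the FDR was 0.0615 or 0.120. The scaffold subunits Psmd1 and Psmd2 had log2 fold changes of -0.21 and -0.19 and were not called.

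The lid held the largest single difference, and 4 of its 8 genes were called lower. Psmd13, a scaffold subunit of the lid, was at 321, 279, 258, and 263 CPM in HCME-sEV libraries 1 to 4 and at 206, 192, and 190.2 CPM in LME-sEV libraries 1 to 3. The lowest HCME-sEV library was well above the highest LME-sEV library. With means of 280.1 ± 28.7 CPM (SD, n = 4) and 196 ± 8.93 CPM (SD, n = 3), the log2 fold change was -0.52 (SE 0.085, edgeR FDR 0.000911). Its exons overlap those of Sirt3 on the other strand, and reads in the overlap cannot be told apart where counting did not use the strand. Whether the overlap reaches the 3′ end, where the reads fall, was not examined. Psmd6, another scaffold subunit, was at 184, 178, 161, and 164 CPM and at 148, 129, and 123 CPM. The groups did not overlap, LME-sEV library 1 being nearest to the HCME-sEV libraries, and the log2 fold change was -0.37 (SE 0.086, edgeR FDR 0.0102, and 0.0703 or 0.0879 without LME-sEV library 2 or 3).

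Psmd7, the partner of the deubiquitinating subunit Psmd14, was at 338, 322, 300.3, and 294 CPM with HCME-sEVs and at 255, 257, and 267 CPM with LME-sEVs. The LME-sEV libraries were close together and under all others, and the log2 fold change was -0.27 (SE 0.076, edgeR FDR 0.0278). The call was lost without HCME-sEV library 2 (FDR 0.0882) or without LME-sEV library 1, 2, or 3 (0.104, 0.119, and 0.0839), and with scaling by library size only (0.0584). Psmd12, a scaffold subunit, gave 133, 139.6, 141, and 129 CPM and 109, 112, and 117 CPM. The groups were again separated and each was tight, with a log2 fold change of -0.27 (SE 0.080, edgeR FDR 0.0399). This call was lost more often than the other 7: it was kept when HCME-sEV library 1 or 4 was left out, and lost without any of the other 5, with an FDR from 0.0647 to 0.141, with no filter on low counts (0.0981), and with upper quartile or library size scaling (0.0601 and 0.0943).

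Psmd3 was at 222, 212, 214, and 201 CPM with HCME-sEVs and at 172, 197, and 170.2 CPM with LME-sEVs. Its groups were separated, only narrowly by LME-sEV library 2, and the log2 fold change of -0.24 was not called (SE 0.080, edgeR FDR 0.0652). Psmd14, which cuts ubiquitin chains off the substrate, had a log2 fold change of -0.12 and Psmd11 of -0.13, both with overlapping groups. Psmd8 was at 345, 375, 337, and 353 CPM and at 340.4, 343, and 321 CPM. These ranges overlapped, and the log2 fold change of -0.075 was the smallest of the lid (SE 0.073, edgeR FDR 0.593).

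**Figure D4:**
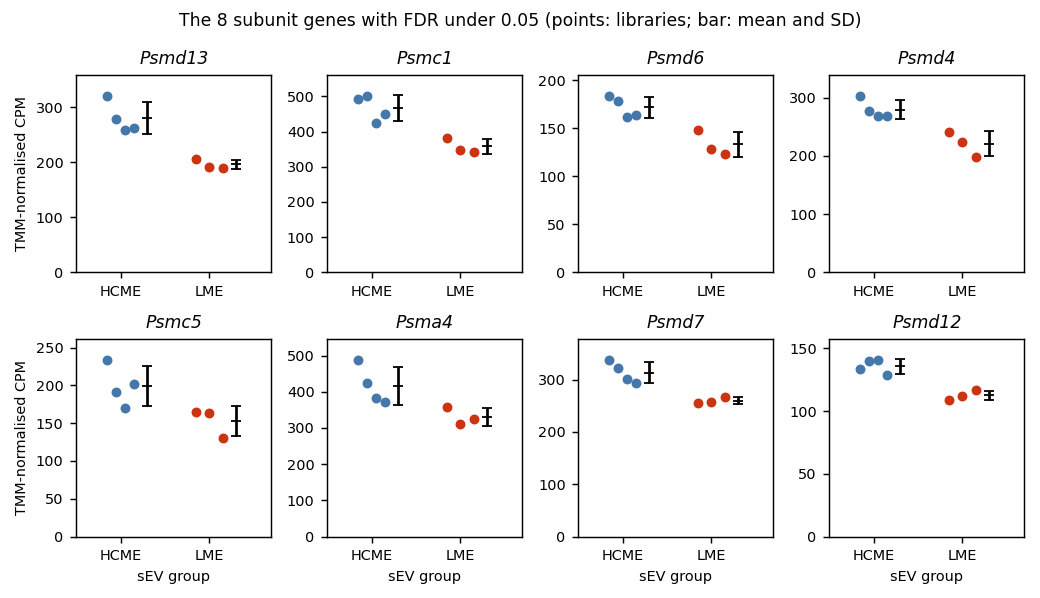
TMM-normalised CPM of the 8 called subunit genes in each library (points) with the mean and SD of each group (bars, n = 4 HCME-sEV and n = 3 LME-sEV libraries); axes start at 0. In each panel the LME-sEV points lie under all HCME-sEV points, with the widest gap for Psmd13.

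The symbol rule also takes 3 chaperones that help to build the base and leave it afterwards. Psmd10 was at 76.1, 51.2, 60.8, and 55.4 CPM with HCME-sEVs and at 68.3, 61.4, and 57.0 CPM with LME-sEVs. HCME-sEV library 1 was the highest of all, and the log2 fold change of 0.026 (SE 0.12, edgeR FDR 0.932) turned negative without HCME-sEV library 2 (-0.049) or 4 (-0.019) and without LME-sEV library 1 (-0.036). Psmd9 had a log2 fold change of -0.29 and Psmd5 of -0.16, both uncalled. They were the least abundant genes of the 34, between 53.8 and 60.9 CPM on average with HCME-sEVs. Without the chaperones, the cap kept 7 calls in 17 genes and a median log2 fold change of -0.26.

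The genes lay on 15 chromosomes, with no more than 6 on one. For 20 of the 34 neither a near-identical 3′ end nor an overlapping exon was found (GENCODE vM21, GRCm38), and of the called genes these were Psmc5 (chr11:106256154-106263120), Psmd4 (chr3:95032694-95042614), Psmd6 (chr14:14112174-14120984), Psmd7 (chr8:107580381-107588464), and Psmd12 (chr11:107479484-107504362). Psma4 (chr9:54950790-54958030), Psmc1 (chr12:100110154-100123405), and Psmd13 (chr7:140881968-140898643) were among the 14 genes with such an end or overlap. Overlaps were taken anywhere in the gene, and whether they reach the 3′ end was not examined. All are protein-coding.

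Genes that work with the particle were counted in the same way, and 5.21% of all tested genes were called lower. Adrm1 and Sem1, cap subunits named outside the rule, had log2 fold changes of -0.23 and 0.066 and were not called. None of the 5 genes for alternative caps and their inhibitor was called: Psme1 had a log2 fold change of -0.12, Psme2 of 0.097, Psme3 of -0.28, Psme4 of 0.083, and the inhibitor Psmf1 of -0.033. Of 5 core assembly chaperones tested, Psmg3 was called lower, with a log2 fold change of -0.33 (SE 0.099, edgeR FDR 0.0411). Its groups overlapped, as LME-sEV library 1 (68.07 CPM) lay just above HCME-sEV library 3 (68.02 CPM). Pomp (-0.13), Psmg1 (-0.14), Psmg2 (-0.014), and Psmg4 (-0.17) were not called.

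Of 5 genes for enzymes bound to the cap, Txnl1, a thioredoxin-like protein, fell, with a log2 fold change of -0.32 (SE 0.080, edgeR FDR 0.0160). The deubiquitinase Uchl5 lay just beyond the limit at -0.31 (FDR 0.0505), and Usp14 (-0.19), Ube3a (-0.18), and Ube3c (-0.12) were not called. Shuttle receptors bring ubiquitinated proteins to the cap, and none of those reported was called, with log2 fold changes of -0.20 for Rad23b, -0.031 for Ubqln1, 0.16 for Ubqln2, -0.094 for Ubqln4, and -0.24 for Ddi2. Among ubiquitin genes and activating enzymes, Ubb (-0.026), Rps27a (0.13), Uba1 (0.10), and Uba6 (-0.063) lay on both sides of 0 and were not called. The 7 genes of the unfoldase Vcp and its cofactors held no call and had a median of -0.052.

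Regulators of subunit transcription held no call among 12. All 12 had a negative log2 fold change, beside 48.5% of all tested genes and 59.9% of the 3902 abundant genes. Their mean counts ran from 10.3 to 734, whereas the abundant genes start at 213, so that share is not matched to them. Ddi2 is counted both here and among the shuttle receptors. Their median of -0.11 lay between the 25th and 75th percentiles of all tested genes (-0.16 and 0.20). A joint change of these genes was not tested. Nfe2l1 was at 38.3 CPM with HCME-sEVs and 35.6 CPM with LME-sEVs (log2 fold change -0.11, edgeR FDR 0.634).

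Other large complexes served for comparison. The COP9 signalosome, which resembles the lid in structure, had no call in 9 genes and a median log2 fold change of -0.24, with 8 of 9 negative. The translation factor eIF3, also related to the lid, had none in 14 and a median of -0.050. The chaperonin, a ring complex, had 1 call in 8 genes, Cct6a with a log2 fold change of -0.34 (SE 0.074, edgeR FDR 0.00661). Its median was -0.12, with 8 of 8 negative. Of the 3902 abundant genes 10.2% were called lower. For eIF3, 9 of 14 values were negative. Mean counts ran from 26.6 to 556 in the COP9 signalosome, from 213 to 1757 in the cap, and from 1221 to 2571 in the chaperonin. Fewer counts make calls less likely, so the lists are not matched in this. In 3 of the 9 signalosome genes every LME-sEV library lay below every HCME-sEV library, beside 10.8% of all tested genes. Among the 3902 abundant genes 59.9% were negative, with the median of -0.046 given above, and nothing particular to the proteasome was tested.

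**Figure D5:**
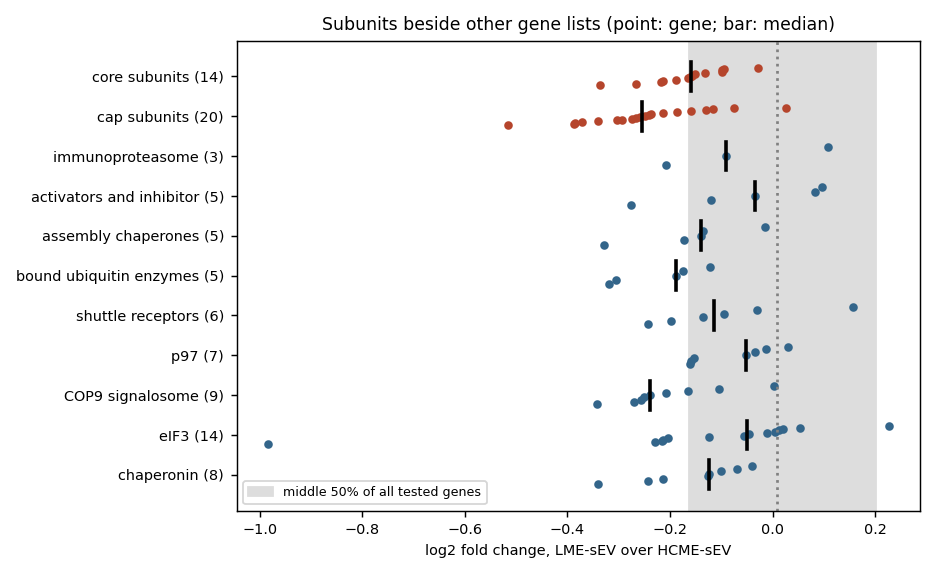
Log2 fold change of each gene (points) in the core, the cap, and 9 other gene lists (number of genes in brackets), with list medians (black bars), the range between the 25th and 75th percentiles of all tested genes (grey band), and their median (dotted line). The medians of the cap (-0.25), the COP9 signalosome (-0.24), and the enzymes bound to the cap (-0.19) lie left of the band; the eIF3 point near -0.98 is Eif3j2, a gene of few counts.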

How the data were processed

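CD8+ T cells from mouse spleens were measured by 3′ RNA-seq (QuantSeq with unique molecular identifiers, UMI) in 7 libraries. The authors deposited whole-number counts per gene symbol, with no normalization. The submitters' processing notes name cutadapt 2.10, STAR 2.5.3a, UMI-tools 1.0.0, and featureCounts of Subread 2.0.0 with build GRCm38. Whether counting used the strand is not given in the sources used here. UMI collapse removes PCR copies, and reads of the 3′ end do not scale with gene length. Groups and replicate numbers were taken from the sample titles, and 0 columns of values were left unmapped.

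The count minimum was a mean of 5 per library, which kept 12623 genes. After TMM scaling, groups were compared with the quasi-likelihood test of edgeR 4.0.16 (R 4.3.3) without covariates, with Benjamini-Hochberg adjustment over these genes, and an FDR under 0.05 was called. The methods state a minimum of 5 counts without saying in which libraries. Ratios of gene pairs, with 0.5 added to each count, were compared by exact permutation. The fit was run on simulated data in which 200 genes with a mean count of 200 or more were changed by 0.5 on the log2 scale. Of the subunits only Psmd13 reached that size, so the simulation does not show how smaller changes are recovered. Totals of 3689831 to 5030522 counts set a floor of 3 counts at 0.596 to 0.813 CPM, for counting error only. Alternatives were other filters, scalings, tests (DESeq2 1.42.0, limma-voom of limma 3.58.1, the edgeR likelihood ratio test), the replicate number as a block, and each library left out; the cap without its chaperones was added after seeing the data.

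The genes and all lists, written by hand from textbook knowledge, were chosen with earlier results of these data known. All 34 subunits were named with a fold change, and values per library were given for the catalytic subunits and their counterparts, the 12 smallest p-values, and the 3 highest log2 fold changes. Genes of other lists were named where the list had at most 6 genes or the gene was called, except some that are not reported here. Some others were named after their values were seen, to show a feature of a list. Positions and near-identical 3′ ends (blast 2.17.0, at least 95% over 200 of the last 300 bases) came from GENCODE vM21 on GRCm38, and promoters from RefSeq on GRCm38.p6.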

Additional observations from a re-analysis of the deposited data

How the results depend on the processing

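The medians of core and cap stayed negative, and no subunit was called higher, under all alternatives run. The core count of 1 became 2 with no filter on low counts, with DESeq2, and with the edgeR likelihood ratio test. Leaving out 1 library at a time gave 0 to 2 core calls (0 without LME-sEV library 2, LME-sEV library 3, or HCME-sEV library 2, and 2 without HCME-sEV library 3) and 2 to 11 cap calls in place of 7 (2 without LME-sEV library 2 or 3, and 11 without HCME-sEV library 3). Over all genes, 658 were called lower and 473 higher, and leaving out 1 library gave 223 to 761 and 168 to 544, least without LME-sEV library 2 and most without HCME-sEV library 3. Scaling by library size only moved the median of all genes to 0.055 and gave 465 lower and 614 higher, and upper quartile scaling 543 and 522. Under these, 6 and 7 subunits were called lower, with core medians of -0.11 and -0.14 and cap medians of -0.21 and -0.23.

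With the replicate block, 4 core genes and 14 subunits in all were called, beside 860 lower and 594 higher genes. Libraries with the same number correlated at 0.072, 0.15, and 0.027 in their deviations from the group means, and not every library correlated best with its own number, so the numbers were not taken to pair the samples.

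Signs of 4 uncalled log2 fold changes turned. With 1 library left out, Psmb4 ranged from -0.16 to 0.0034 (positive without HCME-sEV library 1), Psmb7 from -0.055 to 0.013 (positive without LME-sEV library 1), Psmb9 from -0.055 to 0.24 (negative without LME-sEV library 2), and Psmd10 from -0.049 to 0.15 (negative without HCME-sEV library 2, at -0.049, HCME-sEV library 4, at -0.019, or LME-sEV library 1, at -0.036). Psmb7 was at 0.017 with library size only, and Psmd10 at -0.0021 with the replicate block. The cause of these changes was not tested. With 3 and 4 libraries the SD is imprecise.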
